A study of Arabidopsis thaliana with 4 samples.

Results

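The 9 photoreceptor genes described here encode the phytochromes, cryptochromes and phototropins of *Arabidopsis thaliana*. They were taken by their gene identifiers, as the members of these receptor families, and are 9 of the 33854 genes in the expression tables. They are *PHYA* (AT1G09570), *PHYB* (AT2G18790), *PHYC* (AT5G35840), *PHYD* (AT4G16250), *PHYE* (AT4G18130), *CRY1* (AT4G08920), *CRY2* (AT1G04400), *PHOT1* (AT3G45780) and *PHOT2* (AT5G58140). Their transcripts were measured by poly-A RNA-seq in 12-day-old seedlings of *35S-COLDAIR* and of its wild type Col-0, with 2 libraries per genotype, numbered replicates 1 and 2. The *35S-COLDAIR* seedlings transcribe *COLDAIR*, a long noncoding RNA from the first intron of the flowering repressor gene *FLC*, from the constitutive *CaMV 35S* promoter in the Col-0 background, and all come from a single transgenic line, *35S-COLDAIR #3*. Both genotypes were raised on Murashige and Skoog plates at 22 °C under days of 16 h light and nights of 8 h, so light and age were shared by all 4 libraries. The labels do not say whether the replicates were separate cultures, and the p-values below measure only the spread between these libraries, which may be technical.

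Phytochromes carry a bilin chromophore and switch between a form that absorbs red light and an active form that absorbs far-red light, in which they enter the nucleus and remove PIF transcription factors. Cryptochromes are flavin-binding blue light receptors that restrain the COP1/SPA ubiquitin ligase, and phototropins are membrane-bound kinases that turn blue light into directed growth, chloroplast movement and stomatal opening. In seedlings these families together set hypocotyl length, greening, the entrainment of the clock and the response to day length.

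Levels are given in FPKM, the number of sequenced fragments of a gene divided by its transcript length and by the size of the library, so they can be compared between genes. The values of a library summed to 949172.7 FPKM (replicate 1) and 933831.5 FPKM (replicate 2) in *35S-COLDAIR*, and to 951939.8 and 928299.1 FPKM in Col-0, and pairs of values below follow this order of replicates. Depth was estimated by treating each low value of genes with a single annotated transcript as a single fragment. The most common depth implied, searched within a range set beforehand, was about 18800000 and 20100000 fragments in *35S-COLDAIR*. In Col-0 it was about 17100000 and 17300000 fragments. A depth outside that range could not have been found, so these values and the fragment numbers from them are rough. With these depths, the lowest estimated number of fragments behind a value was 380 for *PHYD* and 10268 for *PHOT1*. *FLC*, the check of the line, was at 43.4 and 37.6 FPKM in *35S-COLDAIR* and at 2.05 and 1.13 FPKM in Col-0, a log2 fold change of 4.02 (adjusted p = 0.0835 by limma with Benjamini-Hochberg adjustment). The 6 green shoot marker genes summed to 60213 to 65362 FPKM in *35S-COLDAIR* and to 58039 to 65838 FPKM in Col-0, and the 6 root marker genes to 785.1 to 1018 FPKM in *35S-COLDAIR* and 936.5 to 992.5 FPKM in Col-0. All 6 markers of each of these lists were above 0 in every library, though the root gene *NRT2.1* was only at 0.11 to 1.28 FPKM. The root sum was mostly *PYK10*, at 942.3 and 722.6 FPKM in *35S-COLDAIR* and at 918.7 and 860.9 FPKM in Col-0. It therefore says little about the other root markers. The 4 seed marker genes summed to 15.1 and 15.0 FPKM in *35S-COLDAIR* and to 33.4 and 8.04 FPKM in Col-0, with replicate 1 of Col-0 the highest and replicate 2 of Col-0 the lowest. The 4 flower marker genes summed to 2.97 to 4.35 FPKM in *35S-COLDAIR* and to 3.23 to 6.24 FPKM in Col-0.

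The 250 bases before the gene start are shown for the 3 phytochrome genes on which the results below turn. *PHYA* had the widest range over the libraries, and *PHYB* and *PHYD* are a pair of close relatives that stood far apart in level. Sequences and positions are from RefSeq, build TAIR10.1, and the tables were made on TAIR10. Capitals mark a G-box (CACGTG) or a PBE-box (CACATG), letters that PIF proteins are known to bind. *PHYB* held a G-box 146 bases and another 111 bases before its start, and *PHYD* held one 75 bases before its start and a PBE-box 131 bases before it.
PHYA, chr1:3100820-3101069, minus strand: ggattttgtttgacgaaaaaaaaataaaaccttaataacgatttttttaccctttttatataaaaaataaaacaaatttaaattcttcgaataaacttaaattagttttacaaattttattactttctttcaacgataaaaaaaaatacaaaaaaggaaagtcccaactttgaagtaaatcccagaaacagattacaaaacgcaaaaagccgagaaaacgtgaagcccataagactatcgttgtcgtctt
PHYB, chr2:8139506-8139755, plus strand: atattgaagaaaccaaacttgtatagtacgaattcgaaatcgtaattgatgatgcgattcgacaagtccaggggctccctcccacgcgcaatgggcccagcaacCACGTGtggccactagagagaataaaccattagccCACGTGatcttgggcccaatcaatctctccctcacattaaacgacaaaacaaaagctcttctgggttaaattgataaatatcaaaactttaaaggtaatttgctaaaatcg
PHYD, chr4:9199841-9200090, minus strand: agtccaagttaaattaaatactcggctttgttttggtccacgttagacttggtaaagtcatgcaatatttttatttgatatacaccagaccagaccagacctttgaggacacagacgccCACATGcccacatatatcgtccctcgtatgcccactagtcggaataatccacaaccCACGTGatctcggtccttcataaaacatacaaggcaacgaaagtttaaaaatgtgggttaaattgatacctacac

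From 250 bases before to 50 bases after the gene start, on both strands, the G-box occurred in 7.68% of 27443 protein-coding genes and in 2 of the 9 photoreceptor genes, *PHYB* and *PHYD*. The PBE-box occurred in 12.91% of these genes and in *PHYD* and *PHOT1*. The clock-related evening element (AAAATATCT) occurred in 2.82% and the CCA1-binding site (AAAAATCT) in 7.88% of genes, and neither was in this window of any photoreceptor gene. No pair of these motifs overlapped in *PHYB* or *PHYD*. The start used is that of the RefSeq gene entry. For *PHOT1* and *PHOT2* this entry spans 7490 and 9287 bases with introns, and their longest transcripts have 3451 and 6518 bases without introns. These matches describe letters in a window. Binding was not tested.

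All 9 genes were expressed in every library and passed the filter of a mean of 0.5 FPKM, as did 20142 genes in all. The order of the mean levels over the 4 libraries was *PHOT1* at 195.9, *CRY1* at 121.1, *CRY2* at 87.8, *PHOT2* at 85.2, *PHYA* at 63.4, *PHYB* at 31.2, *PHYE* at 15.6, *PHYC* at 14.2 and *PHYD* at 5.52 FPKM. *CRY2* and *PHOT2* overlapped, with *CRY2* the higher in 2 of 4 libraries. *PHOT2* and *PHYA* overlapped too, with *PHOT2* the higher in 3 of 4 libraries, and so did *PHYE* and *PHYC*, with *PHYE* the higher in 3 of 4. Every other neighbour in this order kept its place in all 4 libraries without overlap. The blue light receptors thus stood above the phytochromes in mean level, and *PHOT1* lay above 96.6% of the tested genes and *PHYD* above 28.9%.

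**Figure D1:**
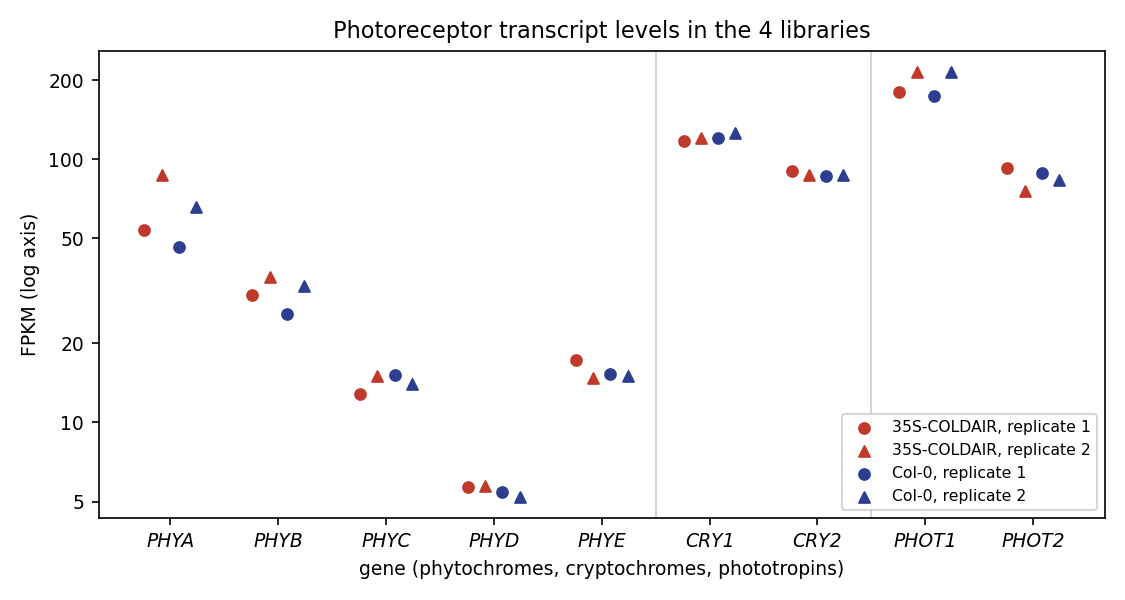
FPKM of the 9 photoreceptor genes (log axis) in each library, with *35S-COLDAIR* in red and Col-0 in blue, and circles for replicate 1 and triangles for replicate 2. The levels span from *PHYD* at 5.22 FPKM to *PHOT1* at 214.6 FPKM, and for *PHYA*, *PHYB* and *PHOT1* both triangles lie above both circles.

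The main question put to these genes was whether their transcript levels differed between *35S-COLDAIR* and Col-0. None of the 9 did by limma on log2(FPKM + 1) with Benjamini-Hochberg adjustment over all 20142 genes, each with an adjusted p of 0.9998. An adjusted p under 0.05 was reached by 0.00993% of all tested genes, 2 in number. *FLC*, with a log2 fold change of 4.02, was not among them in this fit (adjusted p = 0.0835 by limma with Benjamini-Hochberg adjustment). A count of 0 from this fit, here or below, therefore does not show that levels were equal. At an unadjusted p under 0.05 the count was 0 of 9 photoreceptor genes, against 2.59% of all tested genes. The log2 fold changes of the 9 genes lay between -0.06 and 0.31 with a median of 0.03, 6 positive and 3 negative, and the median over all tested genes was 0.002. Because seedlings were sampled whole, fewer cells of a type and less RNA per cell cannot be told apart in any of these values.

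Among the phytochromes, *PHYA* (chr1:3095160-3100819, minus strand) encodes the light-labile form that senses far-red light and very weak light. *PHYA* was at 53.9 FPKM (replicate 1) and 87.5 FPKM (replicate 2) in *35S-COLDAIR*, and at 46.4 FPKM (replicate 1) and 66.0 FPKM (replicate 2) in Col-0. The genotypes overlapped, and within each genotype the library numbered 2 was the higher. The means were 70.7 ± 23.8 FPKM in *35S-COLDAIR* and 56.2 ± 13.9 FPKM in Col-0 (SD, n = 2 each). The log2 fold change was 0.31 (SE 0.292), with a 95% interval of -0.47 to 1.08, that is from 0.722 to 2.12 times the Col-0 level. The fit took no account of replicate numbers, so the difference between replicates enters this interval. Within replicate 1 the difference was 0.21 and within replicate 2 it was 0.40 on the log2 scale, while without replicate 2 of *35S-COLDAIR* it was -0.04. The interval of *PHYA* was the widest of the 9 genes, and its range over the 4 libraries, 0.90 on the log2 scale, was wider than that of 94.5% of tested genes.

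*PHYB* (chr2:8139756-8144461, plus strand) encodes the light-stable phytochrome that dominates the red light response of green seedlings. It was at 30.5 and 35.6 FPKM in *35S-COLDAIR* and at 25.9 and 32.9 FPKM in Col-0. Here too the genotypes overlapped and both libraries numbered 2 were above both numbered 1. The means were 33.0 ± 3.56 FPKM in *35S-COLDAIR* and 29.4 ± 4.93 FPKM in Col-0 (SD, n = 2 each), with a log2 fold change of 0.17 (SE 0.151, 95% interval -0.23 to 0.57). It was 0.0032 without replicate 1 of Col-0, 0.06 without replicate 2 of *35S-COLDAIR*, 0.28 without replicate 1 of *35S-COLDAIR* and 0.34 without replicate 2 of Col-0.

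*PHYD* (chr4:9195247-9199840, minus strand) encodes the closest relative of PHYB, with a related and lesser part in shade responses. It was at 5.69 and 5.70 FPKM in *35S-COLDAIR* and at 5.45 and 5.22 FPKM in Col-0. These genotypes did not overlap, and *PHYD* was the only one of the 9 photoreceptor genes of which this was true. Groups that did not overlap, with *35S-COLDAIR* higher, were found for 14.8% of all tested genes, and with *35S-COLDAIR* lower for 14.3%, against 1 and 0 of the 9 genes. The log2 fold change of *PHYD* was 0.08 (SE 0.105, 95% interval -0.20 to 0.36). *PHYB* exceeded *PHYD* by 5.36 and 6.24 times in *35S-COLDAIR* and by 4.75 and 6.30 times in Col-0, with overlap between the genotypes. No run of 50 bases in the exons of any of the 9 genes occurred elsewhere in the TAIR10.1 genome without mismatch.

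*PHYC* (chr5:14007812-14011848, plus strand) encodes a light-stable phytochrome that works in dimers with PHYB. It was at 12.8 and 15.0 FPKM in *35S-COLDAIR* and at 15.1 and 14.0 FPKM in Col-0. The genotypes overlapped, and the log2 difference was -0.22 within replicate 1 and 0.09 within replicate 2, with opposite signs. The fitted log2 fold change was -0.06 (SE 0.113, 95% interval -0.36 to 0.24). *PHYE* (chr4:10042137-10046346, minus strand), the gene of a further light-stable phytochrome, was at 17.3 and 14.7 FPKM in *35S-COLDAIR* and at 15.2 and 15.0 FPKM in Col-0. Both Col-0 values lay between the *35S-COLDAIR* values, and the log2 fold change was 0.07 (SE 0.111, 95% interval -0.22 to 0.37). Without replicate 1 of *35S-COLDAIR* the log2 fold change was 0.04 for *PHYC* and -0.04 for *PHYE*, both with the opposite sign. The annotated end of AT4G18140, on the same strand, overlaps the start of *PHYE* by 60 bases.

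The make-up of the phytochrome transcripts was compared within each library, where it does not depend on the scaling of that library. The summed phytochrome level was 120.3 and 158.4 FPKM in *35S-COLDAIR* and 108.0 and 133.1 FPKM in Col-0. *PHYA* took 44.8% and 55.2% of this sum in *35S-COLDAIR* and 42.9% and 49.6% in Col-0. The means were 50.02% ± 7.37 in *35S-COLDAIR* and 46.25% ± 4.72 in Col-0 (SD, n = 2 each), a difference of 3.77 percentage points that did not pass a two-sided exact permutation test (p = 0.667, with 0.333 the smallest p that 2 against 2 libraries allow). Within replicate 1 the difference was 1.89 points and within replicate 2 it was 5.64 points. Leaving out replicate 2 of *35S-COLDAIR* set its replicate 1 against both Col-0 libraries, with a difference of -1.45 points. *PHYB* took 25.4% and 22.4% in *35S-COLDAIR* and 24.0% and 24.7% in Col-0. The remaining share was split between *PHYE* at 14.4% and 9.28% in *35S-COLDAIR* and 14.1% and 11.3% in Col-0, *PHYC* at 10.7% and 9.44% in *35S-COLDAIR* and 14.0% and 10.5% in Col-0, and *PHYD* at 4.73% and 3.60% in *35S-COLDAIR* and 5.05% and 3.92% in Col-0. *PHYA* and *PHYB* thus supplied most of the phytochrome transcripts in every library.

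**Figure D2:**
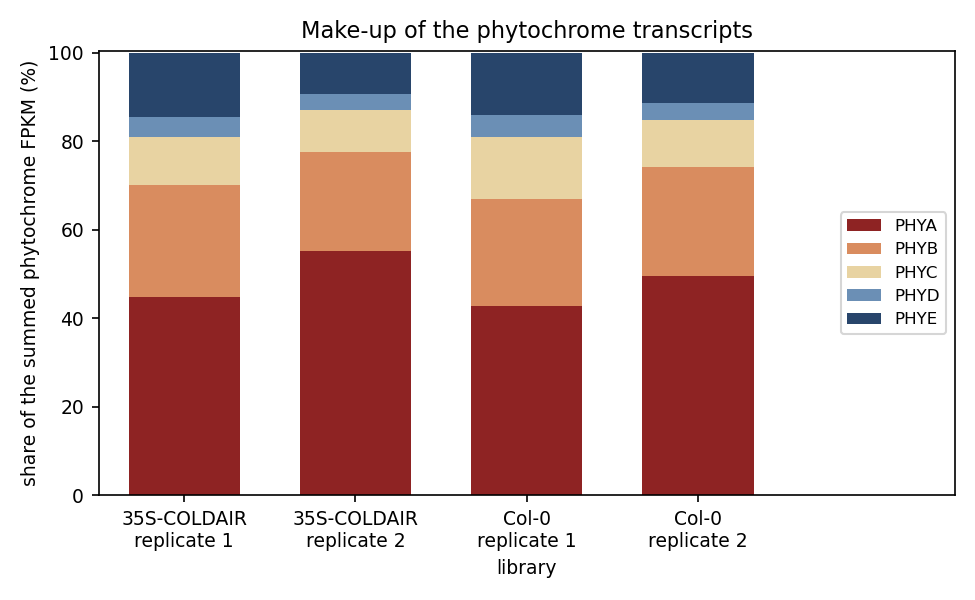
Share of each phytochrome gene in the summed phytochrome FPKM (%), stacked to 100% for each of the 4 libraries, with *35S-COLDAIR* on the left and Col-0 on the right. *PHYA* is the largest share in every library, between 42.9% and 55.2%, and is larger in replicate 2 than in replicate 1 of both genotypes.

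The cryptochrome genes were the steadiest of the 9. *CRY1* (chr4:5723651-5727268, plus strand) encodes the light-stable cryptochrome that inhibits hypocotyl growth in blue light. It was at 117.4 and 120.9 FPKM in *35S-COLDAIR* and at 120.4 and 125.7 FPKM in Col-0, with overlap. The log2 fold change was -0.05 (SE 0.0682), and its 95% interval of -0.23 to 0.14 corresponds to 0.854 to 1.1 times the Col-0 level. It was -0.08 without replicate 1 of Col-0, -0.02 without replicate 2 of Col-0 and -0.03 without replicate 1 of *35S-COLDAIR*.

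*CRY2* (chr1:1185512-1188696, minus strand) encodes the cryptochrome that is degraded in blue light and promotes flowering in long days. It was at 90.4 and 86.8 FPKM in *35S-COLDAIR* and at 86.5 and 87.4 FPKM in Col-0. The genotypes overlapped, and the highest library exceeded the lowest by 1.05 times, the narrowest range of the 9 genes. The log2 fold change was 0.03 (SE 0.0681, 95% interval -0.15 to 0.21), and without replicate 1 of *35S-COLDAIR* it was -0.0028. The ratio of *CRY1* to *CRY2* was 1.3 and 1.39 in *35S-COLDAIR* and 1.39 and 1.44 in Col-0. The difference of this ratio was -0.0737 on the log2 scale (two-sided exact permutation test, p = 0.667, with 0.333 the smallest possible). It was -0.0227 without replicate 1 of *35S-COLDAIR*, -0.125 without replicate 2 of *35S-COLDAIR* and -0.0497 without replicate 2 of Col-0.

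The phototropin genes held the highest level of the 9, that of *PHOT1*. This gene (chr3:16816721-16824210, plus strand) encodes the phototropin that acts over a wide range of blue light and drives phototropism in weak light. It was at 180.2 and 214.6 FPKM in *35S-COLDAIR* and at 174.1 and 214.4 FPKM in Col-0. Same-numbered libraries of the genotypes lay close together, and both libraries numbered 2 were above both numbered 1. The log2 fold change was 0.03 (SE 0.144, 95% interval -0.36 to 0.41). It was -0.10 without replicate 2 of *35S-COLDAIR* and -0.12 without replicate 1 of Col-0.

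*PHOT2* (chr5:23523825-23533111, plus strand) encodes the phototropin that moves chloroplasts away from strong light. It was at 92.8 and 76.0 FPKM in *35S-COLDAIR* and at 88.8 and 83.3 FPKM in Col-0. Both Col-0 values lay between the *35S-COLDAIR* values, and in contrast to *PHOT1* the libraries numbered 2 were the lower. The log2 fold change was -0.03 (SE 0.119, 95% interval -0.35 to 0.28), and it was 0.11 without replicate 2 of *35S-COLDAIR* and 0.01 without replicate 1 of Col-0. The gene AT5G58150 overlaps *PHOT2* on the other strand over 2760 bases and was at 8.54 and 7.70 FPKM in *35S-COLDAIR* and at 6.13 and 7.53 FPKM in Col-0. The strand setting of the counting is not given in the sources used here, so reads of this pair may not be told apart. *PHOT1* exceeded *PHOT2* by 1.94 and 2.82 times in *35S-COLDAIR* and by 1.96 and 2.57 times in Col-0. The log2 difference of this ratio between the genotypes was 0.0605 (two-sided exact permutation test, p = 1.0, with 0.333 the smallest possible). It was -0.21 without replicate 2 of *35S-COLDAIR* and -0.136 without replicate 1 of Col-0.

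**Figure D3:**
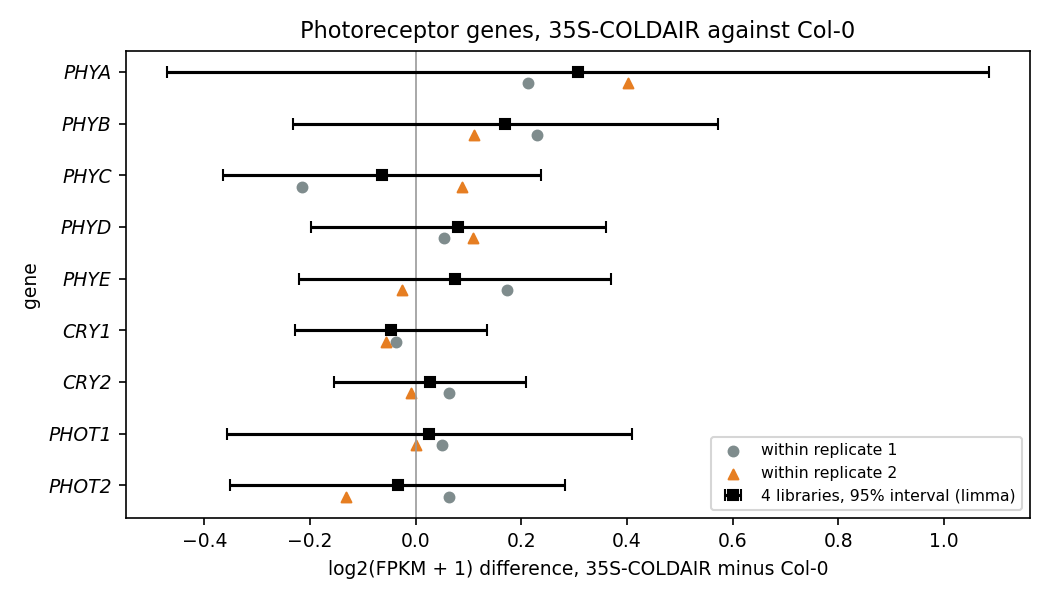
Difference of log2(FPKM + 1), *35S-COLDAIR* minus Col-0, for each photoreceptor gene. Squares are the limma estimates over the 4 libraries with 95% intervals, from a fit that took no account of replicate numbers. Circles and triangles are the differences within replicates 1 and 2. All 9 intervals include 0, and the one of *PHYA*, from -0.47 to 1.08, is the widest.

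Within replicate numbers, *PHYA*, *PHYB*, *PHYD* and *PHOT1* were above Col-0 in *35S-COLDAIR* in both replicates, and *CRY1* was below it in both. This was 4 of 9 genes above, against 28.2% of all tested genes, and 1 of 9 below, against 27.0%. For *PHOT1* the differences were 0.05 and 0.0015 on the log2 scale, and for *CRY1* they were -0.04 and -0.06, so several of these differences were small.

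For *PHYA* and *PHOT1* the replicate number went with larger differences than the genotype. Each deposited table holds 1 library of each genotype with the same number, and a common normalization of both tables is not stated in the sources used here. Over the tested genes, median levels on the log2(FPKM + 1) scale spanned 3.76 to 3.78 among the libraries. On this scale *PHYA* was higher in replicate 2 than in replicate 1 by 0.69 in *35S-COLDAIR* and by 0.50 in Col-0, *PHYB* by 0.21 and 0.33, and *PHOT1* by 0.25 and 0.30. *CRY1* was higher in replicate 2 by 0.04 in *35S-COLDAIR* and by 0.06 in Col-0. These 4 of 9 genes had both libraries numbered 2 above both numbered 1, against 22.4% of all tested genes. The opposite order was found for *PHYE* and *PHOT2*, 2 of 9 genes, against 24.9% of all tested genes. *PHOT2* differed by -0.29 in *35S-COLDAIR* and by -0.09 in Col-0, and *PHYE* by -0.22 and -0.02.

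The 10 clock genes examined all had libraries of replicate 2 that did not overlap those of replicate 1, with 7 higher and 3 lower. Of all tested genes, 22.4% were higher and 24.9% lower in this way. *LUX*, *PRR5* and *GI*, which act in the evening or afternoon part of the clock, were higher in replicate 2. *LUX* was at 15.1 and 22.8 FPKM in *35S-COLDAIR* and at 9.37 and 17.0 FPKM in Col-0, *PRR5* at 16.1 and 23.1 FPKM in *35S-COLDAIR* and 11.1 and 17.3 FPKM in Col-0, and *GI* at 24.8 and 28.5 FPKM in *35S-COLDAIR* and 18.7 and 26.6 FPKM in Col-0. The other genes higher in replicate 2 were *PRR7*, *TOC1*, *ELF3* and *ELF4*. The morning genes *CCA1*, *LHY* and *PRR9*, singled out after their values were seen, were the 3 that were lower in replicate 2. *CCA1* was at 44.3 and 23.6 FPKM in *35S-COLDAIR* and at 51.6 and 27.8 FPKM in Col-0. Between genotypes 0 of the 10 clock genes passed limma with Benjamini-Hochberg adjustment. An unadjusted p under 0.05 was reached by 0 of them, against 2.59% of all tested genes. The fit took no account of replicate numbers, so the replicate differences above enter its SE. Within replicates 1 and 2 the log2 difference was -0.67 and -0.51 for *LHY*, 0.63 and 0.41 for *LUX*, and 0.03 and 0.04 for *PRR7*. The counts of 0 do not show that clock genes were alike in both genotypes. The part of the clock genes in the replicate differences of the photoreceptor genes was not tested.

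**Figure D4:**
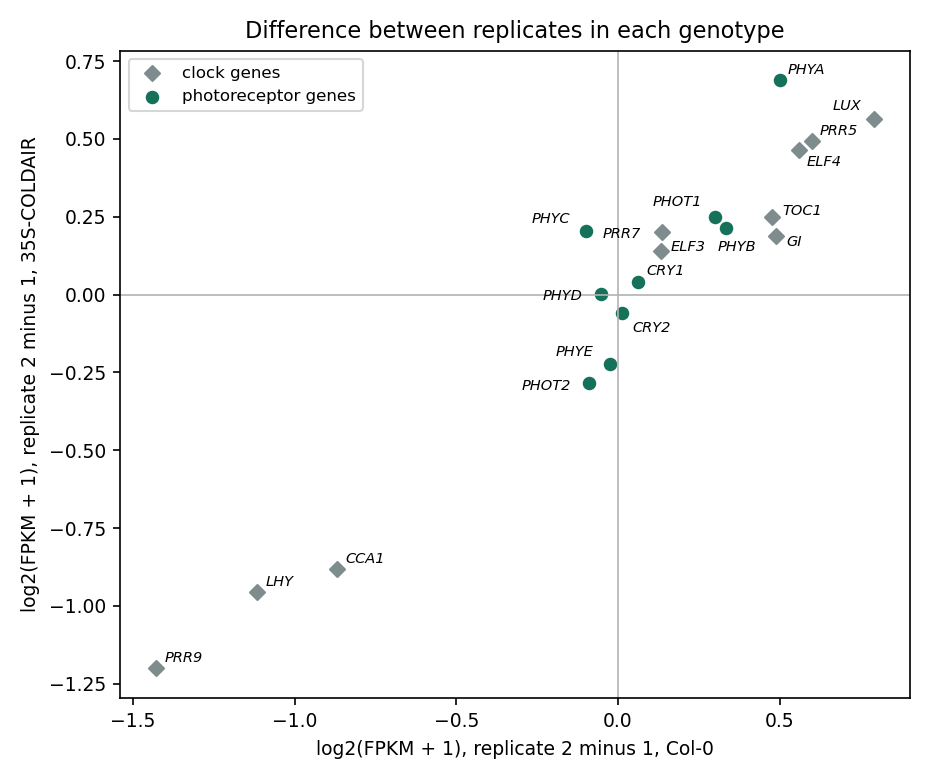
Difference of log2(FPKM + 1) between replicates 2 and 1 in *35S-COLDAIR* (vertical) and in Col-0 (horizontal), with photoreceptor genes as circles and clock genes as diamonds. *PHYA* lies at 0.69 on the *35S-COLDAIR* axis and 0.50 on the Col-0 axis, near *LUX*, *PRR5* and *ELF4*, while *LHY*, *CCA1* and *PRR9* lie at the lower left.

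The 3 genes whose levels over the 4 libraries were most like those of *PHYA*, by Euclidean distance of mean-centred log2(FPKM + 1), were *CP29* (AT3G53460, distance 0.0331), *CAT1* (AT1G20630, 0.0485) and AT2G23100 (0.0519). *CP29* was at 610.4 and 970.1 FPKM in *35S-COLDAIR* and at 532.6 and 755.8 FPKM in Col-0. *CAT1* was at 28.5 and 48.2 FPKM in *35S-COLDAIR* and at 24.3 and 36.0 FPKM in Col-0. Both had the order of *PHYA*, with replicate 2 of *35S-COLDAIR* highest and replicate 1 of Col-0 lowest, which follows from choosing them by this distance. Over all tested genes, 8 lay within a distance of 0.1.

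Genes of the light-signalling lists were compared in the same fit. These lists hold other photoreceptors, chromophore synthesis genes, partners of the receptors, COP1/SPA and DET1 genes, and light-induced genes. Of the 50 tested, 0 passed the threshold in either direction by limma with Benjamini-Hochberg adjustment. An unadjusted p under 0.05 was reached by 0 of the 50, against 2.59% of all tested genes. The log2 fold changes of these 50 genes had a median of -0.0044 and ranged between -0.28 and 0.69, with 24 positive and 26 negative. Among 5 other photoreceptor genes, *CRY3*, the organellar cryptochrome, differed by 0.12 on the log2 scale (SE 0.124). *FKF1* and *ZTL*, blue light receptors of the F-box type, differed by 0.22 (SE 0.434) and 0.07 (SE 0.146). *FKF1* was at 3.13 and 6.81 FPKM in *35S-COLDAIR* and at 2.63 and 5.57 FPKM in Col-0, so its replicates differed more than its genotypes. Of the 4 tested chromophore synthesis genes, the heme oxygenase genes *HY1*, *HO2* and *HO4* differed by -0.14, -0.03 and 0.11. *HO4* was close to the filter of 0.5 FPKM, at 0.81 and 0.53 FPKM in *35S-COLDAIR* and at 0.56 and 0.53 FPKM in Col-0 (SE 0.18). *HY1*, which makes the bilin precursor for all phytochromes, was at 102.5 and 114.2 FPKM in *35S-COLDAIR* and at 125.6 and 113.4 FPKM in Col-0, with overlap.

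Of the 12 phytochrome partners, *PIF3*, *PIF5* and *HFR1*, bHLH proteins of the phytochrome pathway, differed by -0.10, -0.08 and -0.09. *CIB1*, a bHLH protein that binds CRY2, differed by 0.19 and was at 43.7 and 36.1 FPKM in *35S-COLDAIR* and at 32.4 and 37.3 FPKM in Col-0. Among the 8 phototropin partners, *NPH3*, which phototropism requires, differed by 0.07 (SE 0.0769). *PKS4*, a phytochrome kinase substrate family gene, differed by -0.21 (SE 0.138), and *JAC1*, needed for chloroplast accumulation in weak light, by -0.22 (SE 0.257). Among the 9 genes of the COP1/SPA and DET1 group, which degrade light-signalling proteins in the dark, *SPA2*, *COP10* and *CUL4* differed by 0.10, -0.10 and 0.04.

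The 11 genes of the HY5 and light-induced group held the widest difference of these lists. *CHS*, chalcone synthase of the flavonoid pathway, was at 69.7 and 53.6 FPKM in *35S-COLDAIR* and at 26.4 and 52.8 FPKM in Col-0. Both *35S-COLDAIR* libraries were above both Col-0 libraries, by a small margin in replicate 2, and the log2 fold change was 0.69 (SE 0.355, adjusted p = 0.9998 by limma with Benjamini-Hochberg adjustment). *ELIP1*, an early light-induced protein of the chloroplast, was at 11.9 and 7.45 FPKM in *35S-COLDAIR* and at 5.01 and 8.30 FPKM in Col-0, with overlap. Its fitted difference was 0.48 (SE 0.309), with opposite signs of 1.1 within replicate 1 and -0.14 within replicate 2. *RUP1*, a repressor of the UV-B receptor, differed by 0.22. Of the 50 genes, 49 lay within a log2 difference of 0.5, as did 97.6% of all tested genes. Both libraries of replicate 2 were above both of replicate 1 for 13 of the 50, against 22.4% of all tested genes, and below both for 23, against 24.9%.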

How the data were processed

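The 4 libraries, 2 of each genotype, were made from poly-A RNA of 12-day-old seedlings. The authors deposited FPKM per gene and library in 2 tables of 33854 genes. The study's methods name TopHat (up to 2 mismatches) and cuffdiff, whereas the submitters' processing notes name STAR 2.5.2b and Cuffdiff, both on TAIR10. The annotation, the normalization mode, the strand setting and the treatment of multiply mapped reads are not given in the sources used here. Columns were matched to libraries by genotype and number as their names give them, and the numbers in the names of the tables run the other way.

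Levels were log2(FPKM + 1), which understates changes of low genes. Genes averaging 0.5 FPKM or more were compared with limma 3.58.1 in R 4.3.3 (lmFit, eBayes with trend, no block). P-values were adjusted after Benjamini-Hochberg, the threshold was 0.05, and 95% intervals came from the same fit. The fits were tested on simulated data. Ratios were compared with exact permutation tests (scipy 1.17.1). Depth was estimated from low values treated as a single fragment each, within a range set beforehand. Estimated fragments per gene used the shortest RefSeq transcript, and motifs were searched in RefSeq TAIR10.1.

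The members and lists were chosen with earlier results of these data known. Named are the 9 members, *FLC*, the 3 genes nearest to *PHYA*, and per list up to 3 tested genes with the smallest unadjusted p. The other clock genes were named after their values were seen. Of the 99 listed genes, 8 were left out because RefSeq does not give them the listed symbol. Alternatives tried were a 0.1 FPKM pseudocount, omitting the filter or raising it to 1 FPKM, quantile normalization, median centring, no trend, a replicate block, and each library left out in turn.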

Additional observations from a re-analysis of the deposited data

How the results depend on the processing

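With 2 libraries per genotype, no photoreceptor gene and no gene of the light-signalling lists passed the threshold in any setting that kept all 4 libraries. The 27 log2 fold changes of the photoreceptor genes under the other pseudocount, quantile normalization and median centring had the direction of the reported values. Median centring moved all of these genes by the same amount, *PHYA* from 0.3072 to 0.308, too little to change any sign. The other pseudocount also moved them little, *PHYD* from 0.0806 to 0.0936. Both settings are therefore hardly a test of direction. The filters, the trend and the block cannot move these estimates. The number of genes past the threshold over all tested genes was 2 as reported and 7 with the replicate number as a block. It was 3 with the other pseudocount, 3 without the variance trend and 2 in the other settings that kept all 4 libraries. With a library left out fewer libraries were fitted, and no such number is given. The labels do not say what a replicate number shares, and the deviations of same-numbered libraries had a correlation of 0.374 across genes. With the replicate block 1 photoreceptor gene, *PHYA*, had an unadjusted p under 0.05, as did 7.98% of all tested genes, and its adjusted p by limma was 0.484, the lowest of any photoreceptor gene and setting. Over the settings without the block the lowest was 0.933. The adjusted p of *FLC* by limma was 0.0835 as reported and 0.0035 with the block, and 4 of the 10 clock genes had an unadjusted p under 0.05 with the block but 0 passed adjustment. Without replicate 2 of *35S-COLDAIR* the log2 fold change of *PHYA* was -0.0373, and without replicate 1 of *35S-COLDAIR* those of *PHYC* and *PHYE* were 0.0386 and -0.0375. With a library left out, the log2 fold change ranged from -0.04 to 0.65 for *PHYA*, from -0.17 to 0.04 for *PHYC*, from -0.04 to 0.19 for *PHYE*, from -0.0028 to 0.0561 for *CRY2*, from -0.12 to 0.18 for *PHOT1* and from -0.18 to 0.11 for *PHOT2*. The difference in the *PHYA* share ranged from -1.45 to 8.98 percentage points and that in the log2 ratio of *PHOT1* to *PHOT2* from -0.21 to 0.331. With a library left out the genotypes no longer held the same replicate numbers, so all of these ranges mix genotype with replicate number. Their cause was not tested. *PHYB* (0.0032 to 0.3357), *PHYD* (0.05 to 0.11), *CRY1* (-0.08 to -0.02) and the log2 ratio of *CRY1* to *CRY2* (-0.125 to -0.0227) kept their sign, but the values of *PHYB*, *CRY1* and this ratio moved by over 1.5 times.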
